A study of Mus musculus with 26 samples.

Results

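Boundaries packed with gene ends are the domain boundaries of mouse embryonic stem cells at which 3 or more different protein-coding genes started or stopped. A boundary counted when an end of each of these genes lay inside its interval or within 10 kb of it, and intervals lying wholly inside a protein-coding gene were left out. Of the 3515 boundaries in the list, 333 met this rule, a share of 9.47% (95% Wilson interval 8.55 to 10.5). Another 21 boundaries had ends of 3 or more genes but lay inside a larger gene. The rule used gene positions and no measured contact value, so the number of genes at these boundaries is how they were chosen and not a result.

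The study applied Micro-C, which maps contacts between stretches of chromatin cut by micrococcal nuclease, to cells in the G1 phase of the cycle, in 26 libraries of 5 groups. All came from a single line derived from Bruce-4 cells with the genotype C57BL/6J, in which the cohesin subunit RAD21 carries a dTAG degradation tag. The boundaries come from the embryonic stem cells (ESCs) given 0.05% v/v DMSO as vehicle (6 libraries), grown in serum/2i/LIF medium, so the controls carry the tagged RAD21 as well. ESCs given 500 nM dTAG (6 libraries) or 20 µM A485 (6 libraries) and epiblast-like cells given DMSO (4 libraries) or dTAG (4 libraries) were not analysed here. The DMSO libraries were pooled into 1 list of boundaries without scores. The list therefore carries no replicate error and no depth. All values below are descriptions without a test, boundaries and genes are not replicates of a condition, and each interval covers counting error only.

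Mammalian chromosomes are folded into topologically associating domains, stretches that contact themselves more than their neighbours. Their boundaries often carry CTCF, the insulator protein that halts the cohesin ring as it extrudes loops, and active promoters are also frequent there. Genes with functions needed in every cell tend to be short, to lie close together and to start from promoters rich in CpG dinucleotides.

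The promoters below are examples from the boundaries with the most genes, which were histone clusters and clusters of genes of mixed function. Most packed boundaries had exactly 3 genes, and histone promoters had motif counts of their own, so these promoters do not stand for the class. Each is the 250 bases upstream of a start that lay inside its boundary, read 5′ to 3′ on the gene's strand from the RefSeq annotation of GRCm38.p6 (mm10). Capitals mark matches, on either strand, to the CCAAT box (CCAAT), the TATA box (TATAAA), the GC box (GGGCGG) or the core bound by ETS factors (CCGGAAG). H3c6 and H1f3 share the boundary with the most genes, H1f1 and H4c1 the next on the same chromosome, and Fam83e and Tusc2 come from the third and the fourth.

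H3c6, chr13:23562386-23562635, reverse strand: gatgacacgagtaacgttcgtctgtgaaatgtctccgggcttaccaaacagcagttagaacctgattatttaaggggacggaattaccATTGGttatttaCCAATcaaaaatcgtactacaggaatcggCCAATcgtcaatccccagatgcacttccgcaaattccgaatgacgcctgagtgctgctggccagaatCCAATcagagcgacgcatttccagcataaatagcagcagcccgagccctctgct

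H1f3, chr13:23554782-23555031, forward strand: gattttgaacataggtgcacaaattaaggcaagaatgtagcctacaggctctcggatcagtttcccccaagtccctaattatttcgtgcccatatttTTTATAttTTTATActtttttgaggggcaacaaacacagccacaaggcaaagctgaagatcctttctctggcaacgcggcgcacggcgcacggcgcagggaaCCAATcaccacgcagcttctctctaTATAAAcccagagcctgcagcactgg

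H1f1, chr13:23763418-23763667, forward strand: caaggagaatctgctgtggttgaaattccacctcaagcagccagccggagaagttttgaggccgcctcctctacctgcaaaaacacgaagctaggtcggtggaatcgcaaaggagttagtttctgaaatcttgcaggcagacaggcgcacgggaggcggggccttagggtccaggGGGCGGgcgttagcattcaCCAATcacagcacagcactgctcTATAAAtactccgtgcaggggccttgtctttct

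H4c1, chr13:23761250-23761499, reverse strand: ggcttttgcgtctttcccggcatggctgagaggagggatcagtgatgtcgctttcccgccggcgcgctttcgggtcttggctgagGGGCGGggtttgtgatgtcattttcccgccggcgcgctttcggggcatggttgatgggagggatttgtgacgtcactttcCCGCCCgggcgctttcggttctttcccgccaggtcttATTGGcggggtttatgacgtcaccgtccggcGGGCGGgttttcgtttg

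Fam83e, chr7:45720970-45721219, forward strand: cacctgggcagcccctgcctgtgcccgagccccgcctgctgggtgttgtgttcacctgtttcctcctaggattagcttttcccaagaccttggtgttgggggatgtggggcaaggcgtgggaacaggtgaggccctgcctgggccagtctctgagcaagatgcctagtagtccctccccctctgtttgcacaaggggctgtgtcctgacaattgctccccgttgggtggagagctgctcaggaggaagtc

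Tusc2, chr9:107563005-107563254, forward strand: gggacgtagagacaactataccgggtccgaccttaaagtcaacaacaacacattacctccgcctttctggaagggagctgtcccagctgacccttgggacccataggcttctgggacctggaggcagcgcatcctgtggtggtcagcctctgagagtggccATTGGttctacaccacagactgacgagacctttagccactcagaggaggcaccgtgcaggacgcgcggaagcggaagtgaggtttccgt

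The 4 histone promoters all held a CCAAT box. H3c6 had 4 matches to it, H1f3 had 1 together with 3 TATA matches, and H1f1 had 1 of each of CCAAT, TATA and GC box. H4c1 had 3 GC boxes and 27 CpG in 250 bases, against 14 for H3c6, 10 for H1f3 and 11 for H1f1. Tusc2 had a single CCAAT match and 12 CpG. Fam83e had none of these motifs and 4 CpG. Its listed gene end lay 49 bases from the start used by the promoter table. These matches are letters in a window and show no binding.

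The boundary with the most genes was chr13:23550001-23575000, with 12 histone genes, which encode the proteins that package DNA and are made mainly while DNA replicates. H4c6, H1f3, H3c6, H2ac8, H2bc8, H2bc7 and H2ac7 had an end inside the 25 kb interval, where 14 ends lay. H2bc9, H3c7, H3c4, H4c4 and H2bc6 ended within 10 kb. Gene bodies covered 16.3% of the interval. H1f3, for example, spans 0.776 kb and H4c6 0.383 kb. The domains on its sides were short, at 125 and 175 kb.

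The next boundary along, chr13:23750001-23775000, had 9 genes: the histone genes H3c3, H2bc3, H2ac4, H3c2, H4c2, H4c1, H3c1 and H1f1, and Trim38, which encodes a tripartite motif protein. It held 12 gene ends, and gene bodies covered 12.6% of it. The 175 kb domain between these boundaries was therefore closed by histone genes at both edges, and it held 12 protein-coding genes, among them H1f4, H2ac6 and the iron regulator Hfe. Another histone boundary of this chromosome, chr13:21800001-21825000, had 7 genes (H2bc22, H2bc23, H2ac23, H4c17, H4c18, H2ac24 and H4bc24). Its flanking domains measured 650 and 225 kb. On chromosome 3, chr3:96250001-96275000 had H2ac19, H2ac18, H3c14, H4c14, H3c13, H2bc18 and Fcgr1, an immunoglobulin receptor gene, and lay between domains of 400 and 200 kb. Its gene cover was 5.52%, the lowest of the 10 boundaries with the most genes.

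The other 6 of these 10 held genes of mixed function. At chr7:45700001-45725000 the 9 genes were Sec1, Ntn5, Car11, Dbp, Sphk2, Rpl18, Fam83e, Spaca4 and Sult2b1. They include a clock-controlled transcription factor (Dbp), a sphingosine kinase (Sphk2) and a ribosomal protein (Rpl18), and gene bodies covered 97.0% of the interval. At chr9:107550001-107575000 the 9 genes were Cyb561d2, Nprl2, Zmynd10, Rassf1, Tusc2, Hyal2, Hyal1, Naa80 and Hyal3, with 3 hyaluronidase genes among them and 79.7% covered. At chr2:26900001-26925000 lay the surfeit cluster of unrelated, tightly spaced genes (Surf6, Med22, Rpl7a, Surf1, Surf2, Surf4) with Stkld1, and 10 ends fell inside it. Gene bodies covered 90.1% of that interval.

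The remaining 3 had 7 genes each. At chr17:24700001-24725000 these were Gfer, Noxo1, Tbl3, Rnf151, Rps2, Ndufb10 and Rpl3l, with 9 ends inside and 63.7% covered. At chr15:76350001-76375000 they were Cyc1, Sharpin, Maf1, Gm35339, Hgh1, Tssk5 and Mroh1, with 8 ends and 82.9% covered. At chr8:85075001-85100000 they were Fbxw9, Gm5741, Dhps, Wdr83, Wdr83os, Man2b1 and Zfp791, with 7 ends and 92.5% covered. Cyc1 and Ndufb10 encode respiratory chain subunits, Maf1 a repressor of RNA polymerase III, and Man2b1 a lysosomal mannosidase. The map of these 10 boundaries shows that genes of the mixed clusters lie end to end across the interval, while most histone genes are scattered as short marks.

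**Figure D1:**
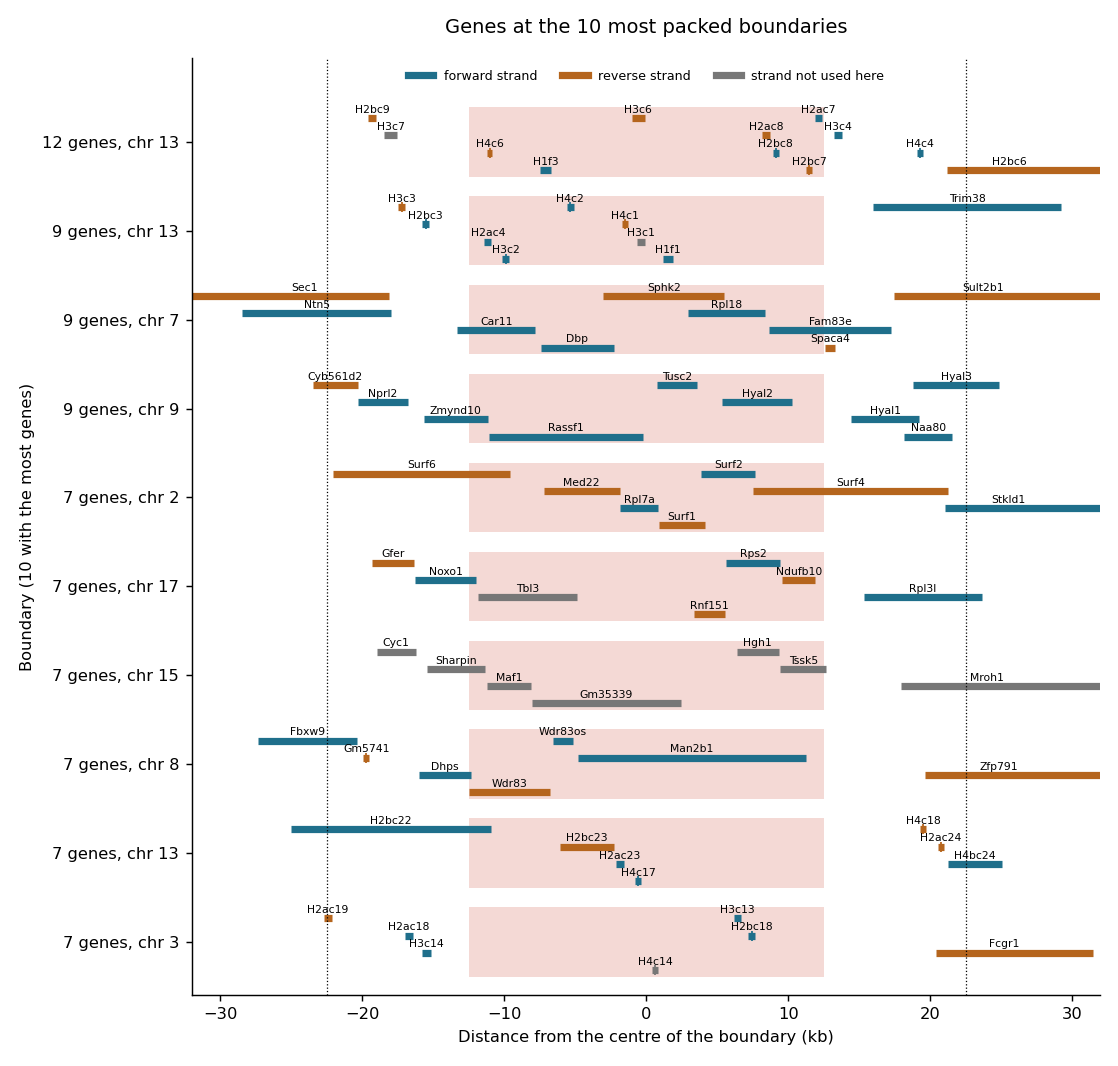
Protein-coding genes at the 10 boundaries with the most genes, by distance from the centre of the boundary in kb. Shaded boxes are the 25 kb intervals, dotted lines the limit of the 10 kb window, bars the genes (cut off at the plot's edge) and colours their strand. Most histone genes appear as short marks in the rows with 12 genes and 9 genes on chromosome 13, and long bars fill the row with 9 genes on chromosome 7.

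Most members lay close to the threshold. Exactly 3 genes were counted at 208 of the 333 boundaries, 4 at 76, 5 at 26, 6 at 13, 7 at 6, 9 at 3 and 12 at 1. Just outside the rule, 667 boundaries had 2 genes. A further 955 had 1 gene and 784 had none, and 776 lay inside a gene. The plot of boundaries by gene number shows no gap at the threshold.

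**Figure D2:**
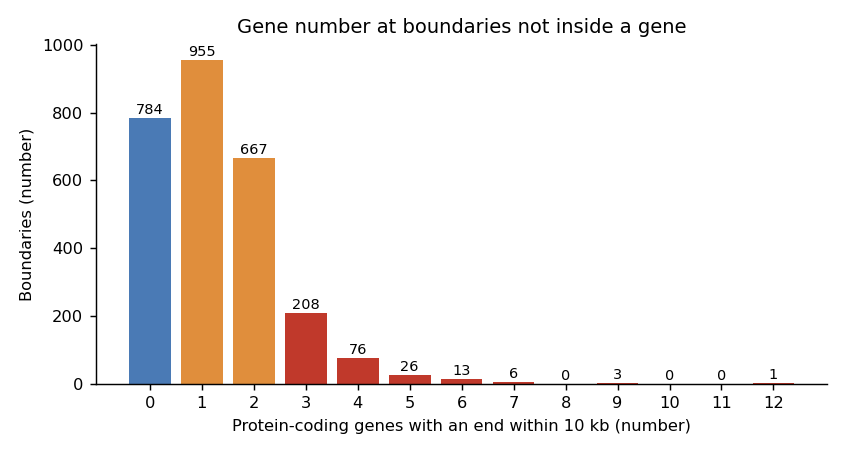
Boundaries that do not lie inside a gene, by the number of protein-coding genes with an end within 10 kb. Bars give the number of boundaries, with red for the 333 packed boundaries, orange for 1 or 2 genes and blue for none. The count drops from 667 boundaries with 2 genes to 208 with 3 and 76 with 4.

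In all, 1216 protein-coding genes had an end at a packed boundary, 5.65% of the 21521 located ones. That was 30.9% of the 3935 genes with an end at any boundary, from 9.47% of the boundaries. A single gene, Macrod1, which encodes an enzyme that removes ADP-ribose, was shared by 2 packed boundaries. It spans 141 kb on chromosome 19 and ends near a different boundary on each side.

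Genes at packed boundaries were short. Their median length was 11.3 kb (95% interval 10.5 to 12.4), against 35.1 kb for the 2719 genes found only at other boundaries and 15.9 kb for the 17586 genes at no boundary. Genes of at most 10 kb made up 45.1% of them, 13.6% of genes at other boundaries and 38.4% of genes at none. Genes of 100 kb or more were rarer, at 5.35%, 21.3% and 10.1% in the same order. The exceptions are long: Kalrn spans 604 kb, and Arhgap6 spans 509 kb. These long genes were named after their lengths were seen.

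Spacing was tight as well. The median gap from a gene at a packed boundary to its nearest protein-coding neighbour was 0.600 kb, against 6.57 kb at other boundaries and 5.71 kb at none. Gaps of at most 1 kb were found for 672 of the 1216 genes (55.3%), 28.2% of genes at other boundaries and 30.8% at none. A protein-coding neighbour overlapped 320 of the genes (26.3%), against 16.9% and 17%. A rule that counts genes in a fixed window favours short and closely spaced genes, so these values follow in part from how the boundaries were chosen.

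Inside the window, the gene ends showed no central peak. Of 1929 gene ends within 10 kb, 1102 (57.1%) lay inside the 25 kb interval, which makes up 25 of the 45 kb searched. In bins of 5 kb, packed boundaries had between 0.541 and 0.703 ends each, with 0.688 in the central bin. Boundaries with 1 or 2 genes had 0.233 to 0.261 ends in the bins of the interval and 0.142 to 0.149 in those outside it. Both classes leave out intervals inside a gene, where only 41 of 521 ends lay inside the interval. This step at the interval's edge therefore follows in part from how the classes were made. Whole genes fitted into the 45 kb in 712 of 1217 cases (58.5%), against 27.3% at boundaries with 1 or 2 genes. At 127 packed boundaries (38.1%), 3 or more genes ended inside the interval itself, and at 3 none did.

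Starts and stops of genes were about equally common. Strand was known for 989 gene positions at packed boundaries, and 783 of these had their start and 791 their stop in the window. At 256 packed boundaries (76.9%) at least 1 start of known strand lay inside the interval, against 41.4% of boundaries with 1 or 2 genes. The rule gives packed boundaries more genes, and starts are among the ends it counted, so this difference follows from the choice of boundaries. Genes pointed away from the boundary's centre in 497 of 989 cases, or 50.3% (95% Wilson interval 47.1 to 53.4), so neither direction prevailed.

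Head-to-head pairs are neighbouring genes on opposite strands that start within 1 kb of each other, here counted only without overlap. Pairs that overlap at their starts, such as Surf1 and Surf2, were left out. Counted pairs occurred at 70 packed boundaries. That was 21.0% (17 to 25.7) of them, against 2.22% of boundaries with 1 or 2 genes, most of which have too few genes to form a pair. Among boundaries with at least 2 genes of known strand the shares were 23.3% of 301 and 7.73% of 466. Counted over genes, 174 of the 988 with known strand at packed boundaries (17.6%, 15.4 to 20.1) had such a partner somewhere, against 6.87% of genes at other boundaries and 5.89% of genes at none. The difference was not tested, and closely spaced genes have more partners within reach. How the left-out overlapping pairs are shared between the classes was not counted.

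The closest of the 78 pairs, named after the gaps were seen, were these. Hccs, which attaches haem to cytochrome c, and the predicted gene Gm15246 start 5 bases apart at chrX:169300001-169325000. Sdhaf2, an assembly factor of succinate dehydrogenase, and Cpsf7, a subunit of the RNA 3′-end cleavage factor, start 14 bases apart on chromosome 19. Ctns, the lysosomal cystine transporter gene, and Shpk, a sedoheptulose kinase gene, start 17 bases apart on chromosome 11. Further down the list Atp5c1, an ATP synthase subunit gene, started 41 bases from Kin.

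Promoters at packed boundaries were rich in CpG, as were those at other boundaries. In windows from 250 bases before to 50 after the start, the median CpG count was 18 (95% interval 18 to 19) for 988 genes at packed boundaries, 20 for genes at other boundaries and 12 for genes at none. At least 10 CpG were found in 73.8%, 75.5% and 54.1% of these promoters. The median GC content was 58.7%, 60.0% and 55.7%. CpG richness was thus shared with boundaries of fewer genes.

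Motif shares are given for the same windows, on both strands. The ETS core CCGGAAG occurred in 215 of the 988 promoters (21.8%, 19.3 to 24.4), in 15.9% of promoters at other boundaries, in 10.8% at none and in 12.1% of all 17274. Within promoters of at least 10 CpG it occurred in 27.4% of 729 at packed boundaries (24.3 to 30.8), 19.9% of 1617 at other boundaries and 17.7% of 7655 at none. Genes whose counted head-to-head pair lay at the packed boundary itself had it in 28.4% of 155 promoters. The remaining genes had it in 20.5% of 833. These include pairs that overlap at their starts and genes with a partner counted elsewhere. Promoters of a head-to-head pair overlap, so a single match can be counted for both genes.

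The other motifs are given for packed boundaries, other boundaries and all promoters in turn. The GC box GGGCGG was found in 55.2% of promoters at packed boundaries, 58.0% at other boundaries and 46.9% of all. CCAAT was found in 38.7%, 37.8% and 39.6%. The NRF1 motif searched, GCGCATG, was found in 7.69%, 6.96% and 4.93%, and the YY1 core, AAGATGG, in 8.50%, 6.54% and 6.40%. The E-box CACGTG was found in 8.50%, 9.95% and 8.01%. TATAAA was found in 10.1%, 7.89% and 13.4%. Within promoters of at least 10 CpG, TATAAA was in 7.13% at packed boundaries (5.48 to 9.23), 4.02% at other boundaries (3.17 to 5.09) and 5.70% of all. The packed promoters in this comparison include 22 of histone genes, which often hold TATAAA, and the share without them was not counted. The CTCF core consensus matched 4 of the 988 promoters (0.405%), 0.701% at other boundaries and 0.550% of all. Those 4 matches lay at 4 of the 312 packed boundaries with a promoter in the table, beside 14 of 1338 boundaries with 1 or 2 genes. Most of each 25 kb interval was not searched.

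Histone promoters had motif counts of their own. Of 32 promoters of replication-dependent histone genes at packed boundaries, 27 (84.4%) held CCAAT and 18 (56.3%) TATAAA, and their median CpG count was 12. The ETS core, the NRF1 motif, the E-box and the CTCF consensus each occurred in 0 of 32, which allows a share of up to 9.38%. Without these histone genes TATAAA fell from 10.1% to 8.58% of promoters at packed boundaries, and the ETS core stood at 22.5%.

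Gene lists made by symbol were set against the 5.65% of all protein-coding genes found at packed boundaries. They were chosen with earlier results in view and overlap in places. In all, 206 list genes lay at 123 packed boundaries. Replication-dependent histone genes had the highest share, 35 of 66 (53.0%), at 5 boundaries that include those described above. In alphabetical order they begin with H1f1, H1f3, H2ac11 and H2ac18. Some histone genes at packed boundaries were outside this list. They were H4f16 and H2aj at chr6:136800001-136825000, H2bu2 and H2aw at chr11:58925001-58950000, and H4bc24.

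Hox genes, which set position along the body axis, followed with 14 of 39 (35.9%) at 3 boundaries. In HoxA these were Hoxa7, Hoxa9, Hoxa10, Hoxa11 and Hoxa13 at chr6:52225001-52250000, between domains of 350 kb on each side. HoxD gave Hoxd8, Hoxd9, Hoxd10, Hoxd11, Hoxd12 and Hoxd13 at chr2:74675001-74700000, between domains of 750 and 450 kb. In HoxC, Hoxc11, Hoxc12 and Hoxc13 lay at chr15:102925001-102950000, between 200 and 225 kb. All 14 belong to the middle and posterior parts of their clusters, and no gene of HoxB met the rule. Genes of a cluster share 1 boundary, so the histone and Hox counts rest on few places.

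Lists of scattered housekeeping genes came next, mostly with a different boundary for each gene. Mediator and RNA polymerase II genes, including Med22, Med24, Med29 and Med4, were at packed boundaries in 9 of 43 cases (20.9%), at 9 boundaries. Respiratory chain genes, including Atp5c1, Atp5g1, Atp5j2 and Atp5pb, gave 18 of 89 (20.2%) at 18 boundaries. Cytoplasmic ribosomal protein genes, including Rpl10a, Rpl17, Rpl18 and Rpl23, gave 14 of 88 (15.9%) at 13 boundaries. DNA repair and replication genes, such as Fance, Fancg, Mcm2 and Mcm7, gave 11 of 82 (13.4%) at 11 boundaries. Spliceosome and SR protein genes (Prpf31, Snrpa1, Snrpd2, Snrpd3 and others) gave 8 of 61 (13.1%). At boundaries of any class lay 37.2% of Mediator and RNA polymerase II, 31.5% of respiratory chain and 31.8% of cytoplasmic ribosomal protein genes. The shares were 29.3% for DNA repair and replication and 41.0% for spliceosome and SR protein genes. Of all 21521 protein-coding genes, 17586 lay at no boundary. Whether these lists favour packed over other boundaries was not tested.

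Several lists had shares within counting error of 5.65%. Translation initiation factor genes (Eif1a, Eif2s1, Eif3d, Eif3j1 and others) gave 6 of 55 (10.9%), and proteasome genes (Psmb1, Psmd3, Psmd4 and Psmg3) 4 of 50 (8%). The immediate early genes gave 2 of 22 (9.09%): Ier2, and Zfp36, which encodes an mRNA-destabilising protein. Keratin and keratin-associated genes, such as Krt25, Krt26, Krt27 and Krt33a, gave 8 of 109 (7.34%) at 3 boundaries. Mitochondrial ribosomal protein genes (Mrpl20, Mrpl44, Mrps14, Mrps18b and another) gave 5 of 78 (6.41%), against 15.9% of their cytoplasmic counterparts, with intervals that overlap. Hars and Hars2, histidyl-tRNA synthetase genes at a single boundary, were 2 of 35 aminoacyl-tRNA synthetase genes (5.71%). Defensin genes gave 4 of 71 (5.63%), all at 1 boundary (Defb19, Defb21, Defb36 and Defb45). Genes with a Tmem symbol, such as Tmem106a, Tmem121b, Tmem126a and Tmem129, gave 13 of 238 (5.46%). Numbered zinc finger genes, such as Zfp110, Zfp119b, Zfp260 and Zfp329, gave 16 of 397 (4.03%).

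Other lists had lower shares at packed boundaries. Solute carrier genes, including Slc13a3, Slc19a2, Slc25a41 and Slc37a4, gave 7 of 387 (1.81%). Olfactory receptor genes, including Olfr101, Olfr1123, Olfr1124 and Olfr1126, gave 26 of 1109 (2.34%) at 11 boundaries. Small lists had single genes or a pair: Col9a3 of 44 collagen genes (2.27%), Cyp2f2 and Cyp2t4 of 98 cytochrome P450 genes (2.04%), Cxcl17 of 57 chemokine and chemokine receptor genes (1.75%) and Serpine2 of 63 serpin genes (1.59%). The intervals of these small lists include 5.65%. Of 352 vomeronasal receptor genes 0 met the rule, which allows a share of up to 0.852%. The 57 clustered protocadherin genes gave 0 (up to 5.26%, with a Wilson upper bound of 6.31%), and the 27 pluripotency genes gave 0 (up to 11.1%). The Wilson intervals of both lists include 5.65%. None of the 27 listed pluripotency genes therefore lay at a packed boundary, and neither did Pou5f1, Sox2 or Nanog.

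**Figure D3:**
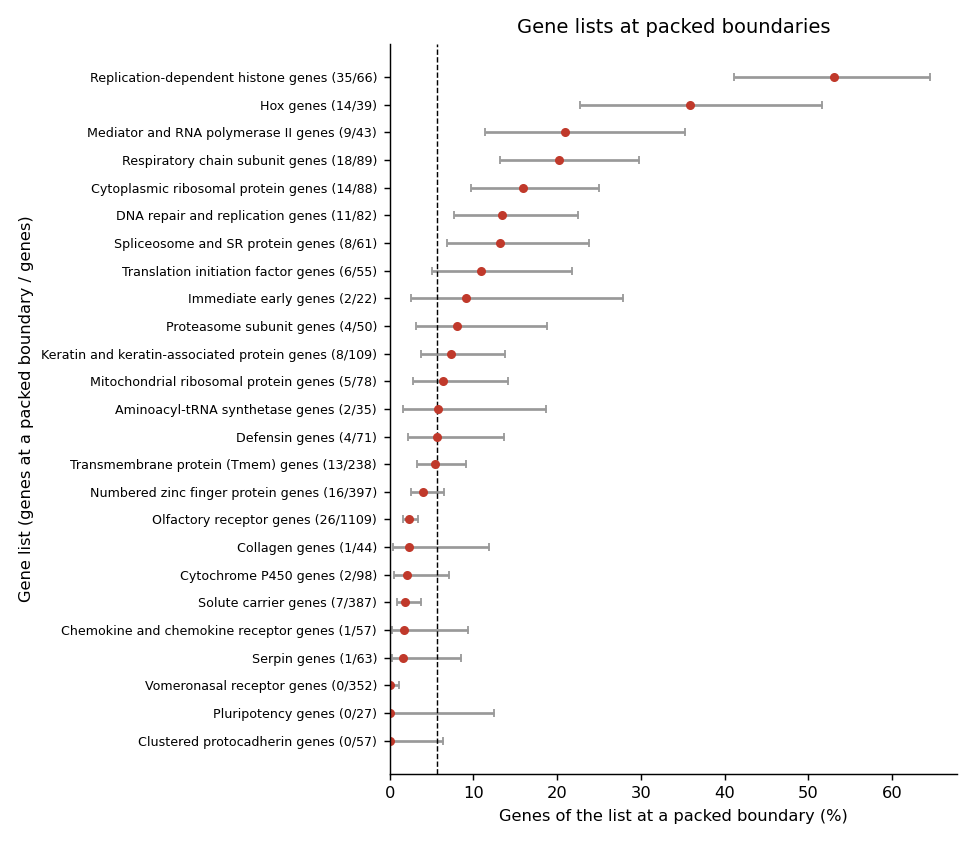
Share of the genes of each of 25 lists that had an end at a packed boundary, in percent, with 95% Wilson intervals. Points are shares, and labels give the genes at a packed boundary and the genes in the list. The dashed line is the 5.65% of all protein-coding genes. Replication-dependent histone genes (53.0%) and Hox genes (35.9%) lie at the top, and lists with 0 genes at the bottom.

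Packed boundaries lay in gene-rich surroundings that reached far beyond the window. Between 50 and 100 kb from the centre, outside the rule's window, they had 1.20 gene ends per 25 kb, 2.87 times the genome mean of 0.419. The value was 1.14 between 125 and 250 kb and 1.03 between 275 and 500 kb, still 2.45 times the mean. Far ends of genes that the rule counted can lie at these distances and were not taken out. Boundaries with 1 or 2 genes had 0.531, 0.510 and 0.501 at the same distances. Those without a gene end had 0.280, 0.281 and 0.306, below the genome mean. The profile of gene ends shows the packed class as a narrow peak on a high plateau.

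**Figure D4:**
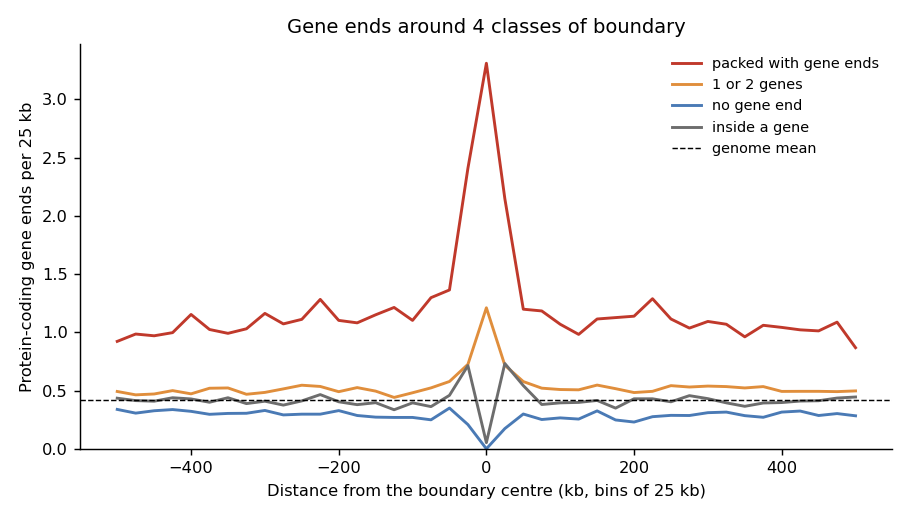
Protein-coding gene ends per 25 kb by distance from the boundary centre in kb, for 4 classes of boundary. Lines are means over boundaries, and the dashed line is the genome mean of 0.419. The centre of the packed line (3.31) is set by the rule, while its flanks at 275 to 500 kb average 1.03.

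The number of other protein-coding genes within 500 kb had a median of 17 at packed boundaries (quartiles 10 and 29), against 7 with 1 or 2 genes, 4 with none and 6 inside a gene. Both sides of a packed boundary were gene-rich. The richer side had a median of 11 such genes and the poorer side 6, against 5 and 2 at boundaries with 1 or 2 genes.

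The domains flanking packed boundaries were about as long as those flanking boundaries with 1 or 2 genes. The mean of the domains on each side had a median of 525 kb (95% interval 487.5 to 550) at 329 packed boundaries with a neighbour on each side. It was 537.5 kb with 1 or 2 genes, 675 kb with no gene end and 550 kb inside a gene. Over all boundaries it was 562.5 kb (550 to 575). The shorter side had a median of 325 kb and the longer 675 kb, the same as at boundaries with 1 or 2 genes. A domain of at most 200 kb adjoined 59 packed boundaries (17.9%), against 17% of all boundaries. Domains of 1500 kb or more were less frequent beside them, at 26 boundaries (7.90%) against 15.8% of all.

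Local gene number moved with these lengths. Boundaries were therefore also divided into 3 groups of about equal size by the number of other genes within 500 kb, at most 4, 5 to 10 and above 10. Of the packed boundaries 249 (74.8%) fell in the gene-richest group. There the median was 525 kb (487.5 to 562.5) for packed boundaries and 475 kb (450 to 500) for those with 1 or 2 genes. In the gene-poorest group it was 594 kb for 27 packed boundaries, 675 kb with 1 or 2 genes and 862.5 kb with none. In gene-rich surroundings the domains beside packed boundaries were thus no shorter than those beside other boundaries, with intervals that overlap.

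**Figure D5:**
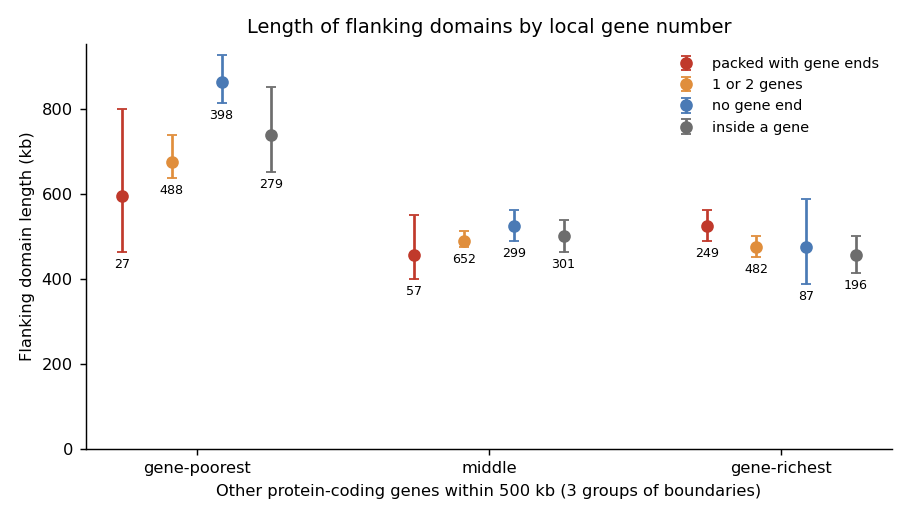
Median length in kb of the domains flanking a boundary (mean of its sides), for 4 classes of boundary, grouped by the number of other protein-coding genes within 500 kb. Points are medians, bars 95% intervals from order statistics, and numbers the boundaries in each group, of which the first and last of a chromosome are left out of the medians. In the gene-richest group, at the right, the medians run from 456 to 525 kb, and in the gene-poorest, at the left, from 594 kb for packed boundaries to 862.5 kb for boundaries with no gene end.

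The shortest domains next to a packed boundary measured 125 kb. The domain at chr13:23425001-23550000, which ends at the boundary with 12 histone genes, held 7 protein-coding genes by their midpoints, among them H4c8, H2ac10 and the milk fat protein gene Btn1a1. At chr8:94700001-94825000 lay the chemokine genes Ccl22, Cx3cl1 and Ccl17, closed by a boundary with Ciapin1, Coq9 and Polr2c. Among domains of 150 kb, chr19:7050001-7200000 was packed at both edges. It held Macrod1 and Flrt1, a gene nested within it.

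The longest were all on chromosome 7. A domain of 5825 kb (chr7:6975001-12800000), with 64 genes, mostly of the vomeronasal receptor family, ended at a boundary with Zscan18, Zfp329 and Zfp110. A 5225 kb domain (chr7:19150001-24375000) with 160 genes began at a boundary with Bhmg1, Fbxo46, Qpctl, Snrpd2 and Gipr. A domain of 3725 kb (chr7:52025001-55750000) held 1 protein-coding gene, Luzp2, and began at a boundary with Gas2, Svip and 1700015G11Rik.

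Packed boundaries tended to follow each other. The next boundary on at least 1 side was also packed for 141 of 333 (42.3%, 37.2 to 47.7), while 17% of all boundaries had a packed neighbour. Both neighbours were packed for 19. The share was 17.4% for boundaries with 1 or 2 genes, 8.80% with none and 13.7% inside a gene. In the gene-richest group it was 53.0% (46.8 to 59.1) for packed boundaries and 38.4% (34.1 to 42.8) with 1 or 2 genes. In the middle group it was 12.3% (6.08 to 23.2) and 11.5% (9.28 to 14.2), and in the gene-poorest 7.41% (2.06 to 23.4) and 4.51% (3.00 to 6.73), with intervals that overlap. Gene-rich surroundings moved with this share in every class, and their part in it was not tested.

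Of the runs formed in this way, 192 were single boundaries, 48 had 2, 9 had 3, 2 had 4 and 2 had 5. The run of 5 on chromosome 19 covered 1825 kb from 5400001 to 7225000. Its boundaries held Tsga10ip, Drap1 and AI837181, then Tigd3, Dpf2 and Cdc42ep2, then Sf1, Pygm and Rasgrp2, then Fermt3, Stip1 and Macrod1, and last Macrod1, Otub1, Cox8a and Naa40. They include genes for a splicing factor (Sf1), muscle glycogen phosphorylase (Pygm), a co-chaperone (Stip1) and a cytochrome oxidase subunit (Cox8a). The domains between them measured 475, 450, 625 and 150 kb.

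The run of 5 on chromosome 7 covered 3925 kb, with domains of 300, 1400, 1225 and 875 kb. Its second boundary had Tgfb1, the growth factor gene, with Ccdc97 and Hnrnpul1. The third boundary had Cyp2f2, Cyp2t4 and Egln2, an oxygen-sensing prolyl hydroxylase gene. The fourth had Plekhg2, Zfp36, Med29, Paf1 and Samd4b, and the last Spint2, Ppp1r14a and Dpf1.

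Domains with packed edges were gene-dense but not short. The 80 domains with 2 packed edges had a median of 3.16 protein-coding genes per 100 kb, the 502 with 1 packed edge 1.67, and the 2913 without 0.533. Median lengths were 525, 475 and 500 kb in the same order. Genes were placed in domains by their midpoints. Domains without the midpoint of a protein-coding gene numbered 211 without a packed edge (7.24%), 1 with 1 packed edge and 0 with 2. The 1 domain, chr16:33975001-34125000, lies inside Kalrn, so such domains can still hold part of a gene. Genes at the edges count in part towards this density.

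Packed boundaries were unevenly shared between chromosomes. They made up 36 of 174 boundaries on chromosome 11 (20.7%, 15.3 to 27.3) and 40 of 195 on chromosome 7 (20.5%, 15.4 to 26.7). Chromosomes 17, 4 and 19 followed with 16.3%, 14.1% and 12.8%. Chromosome 18 had 6 (4.41%) and chromosome 12 had 8 (5.76%). Chromosome X had 2 of 175 (1.14%, 0.314 to 4.07), with Gpkow, Wdr45, Praf2 and Ccdc120 at the first and Arhgap6, Hccs and Gm15246 at the second. Chromosomes 7 and 11 also had the most protein-coding genes per Mb, 14.2 and 13.5. Chromosome X had 5.75, close to the 5.80 of chromosome 12 and the 5.84 of chromosome 18.

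Non-coding genes, which the rule did not use, were mixed. A long non-coding RNA gene ended at 109 packed boundaries (32.7%, 27.9 to 37.9), against 30.3% of all boundaries, 33.6% of those with 1 or 2 genes and 34.1% of those with no protein-coding end. Pseudogenes were at 54 (16.2%), against 16.5% of all. Both shares were close to the background. Small nuclear RNA genes were at 11 (3.30%, 1.85 to 5.82), against 1.91%. tRNA genes were at 7 (2.10%, 1.02 to 4.27), against 0.882% of all boundaries, and in the gene-richest group they were at 2.41% of packed boundaries, 2.07% with 1 or 2 genes and 5.75% with no protein-coding end. Of the 11 tRNA genes, 5 shared 1 boundary on chromosome 14 with Olfr750, Rnase4 and Ang.

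miRNA genes were at 24 packed boundaries (7.21%, 4.89 to 10.5), against 2.84% of all boundaries and 3.08% of those with 1 or 2 genes. snoRNA genes were at 15 (4.50%, 2.75 to 7.30), against 2.67% and 2.65%, and 3.32% of boundaries with no protein-coding end. In the gene-richest group the miRNA shares were 8.84% (5.91 to 13.0) at packed boundaries and 4.98% (3.37 to 7.30) with 1 or 2 genes, and the intervals overlap. The snoRNA shares there were 5.22% (3.08 to 8.73) and 3.94% (2.54 to 6.07), and these intervals overlap as well. Of the 33 miRNA genes at packed boundaries 28 lay within a protein-coding host gene, as did 27 of the 30 snoRNA genes. None of the 11 tRNA genes did. Hosts were not counted away from packed boundaries, so these counts show no trait particular to them. Counted over genes, 2.69% of 1228 miRNA, 2.26% of 1330 snoRNA and 2.73% of 403 tRNA genes lay at packed boundaries. The share of protein-coding genes, which the rule used, was 5.65%. The host genes named next were picked after these values were seen.

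The miRNAs that lie within Mcm7, a replicative helicase gene, are shown as the example of a hosted cluster. The boundary chr5:138175001-138200000 had Mcm7, Ap4m1, Taf6, Cnpy4, Mblac1 and Nxpe5, and Mir25, Mir93 and Mir106b ended within 10 kb of it, on the reverse strand. The mature sequences from RefSeq GRCm38.p6 are given 5′ to 3′ with the seed, bases 2 to 8, in capitals.

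mmu-miR-93-5p: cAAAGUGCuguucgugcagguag

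mmu-miR-106b-5p: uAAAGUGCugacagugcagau

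mmu-miR-25-3p: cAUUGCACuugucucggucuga

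mmu-miR-93-5p (chr5:138165574-138165596) and mmu-miR-106b-5p (chr5:138165787-138165807) share the seed AAAGUGC. mmu-miR-25-3p (chr5:138165332-138165353) has AUUGCAC. Elsewhere, Mir126a and Mir126b lay within Egfl7, a gene of the vessel wall, and Mir196b at the HoxA boundary had no protein-coding host. Of the hosted snoRNA genes, 5 lay within Nop56, which encodes a core protein of snoRNA particles, 4 within Rpl7a at the surfeit boundary and 4 within 2410002F23Rik. Rpl17 held 3, and Rps3, Rps2 and Tbrg4 held 2 each.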

How the data were processed

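The Micro-C libraries come from 1 RAD21-dTAG mouse line. Alignment with BWA 0.7.17 and contact processing with Juicer 1.22.01, both on mm10, are recorded in the submitters' processing notes. The authors' deposited file for the pooled DMSO-treated ESC libraries gives each boundary as a chromosome, start and end, that is genome positions without a score. How boundaries were called, with which window and threshold, is not given in the sources used here. Every interval was 25 kb wide. Printed positions count from 1.

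RefSeq gene positions were those of GRCm38.p6. After 345 genes of scaffolds (110 protein-coding) were left out, 49209 remained, 21521 of them protein-coding. Strand, start sites and promoter sequence came from the RefSeq promoter table, which held 17274 protein-coding genes and 988 of the 1216 at packed boundaries. Domains run from the end of a boundary to the start of the next.

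The members, the 25 gene lists made by symbol pattern and the 8 motifs were chosen with earlier results of these data known. Shares have 95% Wilson intervals and medians 95% intervals from order statistics. A count of 0 is given with the share that 3 counts would make. Named were the 10 boundaries with the most genes, at most 4 genes a list in alphabetical order (Hox, immediate early and pluripotency genes without that limit), the longest runs and the 3 longest and shortest flanking domains. The genes of 1 boundary in these runs are not reported here. Promoters were printed for at most 2 genes at each of the first 4 boundaries. Their start had to lie inside the interval, and their 250 upstream bases had to be clear of other protein-coding genes. The assignment of classes was tested on simulated data. Tables were made with pandas 2.3.3 and numpy 2.4.6, intervals with scipy 1.17.1 and figures with matplotlib 3.10.9, in Python 3.11.15.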

Additional observations from a re-analysis of the deposited data

How the results depend on the processing

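The rule sets how many boundaries and genes belong to the class. Of 66 values from 6 results under 11 alternatives, 44 stayed within counting error (for the number of boundaries, within 1.5 times) and 22 moved. With no window, 127 boundaries (3.61%) were packed, 20.5% of them had a packed neighbour, and 1.94% of protein-coding genes lay at one. With a window of 20 kb these values were 545, 15.5%, 51.2% and 9.73%. They were 1000, 28.4%, 62.3% and 11.8% with 2 or more genes, 125, 3.56%, 26.4% and 2.76% with 4 or more genes, and 158, 4.50%, 32.9% and 2.69% with gene midpoints in place of ends. A packed neighbour is likelier the more boundaries are packed, and the share over all boundaries was not counted at these settings. With overlapping genes merged, 7.54% of boundaries and 4.66% of genes belonged. The median flanking length (512.5 to 537.5 kb) and the share with a long non-coding RNA gene end (31.5 to 37.6%) moved in none of the 11. Leaving out the replication-dependent histone genes, an alternative chosen after seeing the data, moved none of the 6 results and left 328 boundaries. Leaving out replicates was not possible, since the list is pooled. No paired analysis was possible because the pooled list holds no values per sample, so a replicate block cannot be fitted. Contact depth, boundary strength and the error of a boundary's position are unknown.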
